A study of Mus musculus with 60 samples.

Results

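The mitochondrial ribosomal protein genes are the nuclear genes for the protein subunits of the ribosome that works inside mitochondria. They were taken by symbol, as every gene named Mrpl or Mrps followed by a number and at most 1 letter, which gave 78 of the 18088 genes in the table. All 78 are protein coding, and they lie on 17 chromosomes. All 78 were among the 17807 genes tested, for which 5 or more libraries had to reach a value of 10. RNA was sequenced from the prefrontal cortex of C57BL/6J mice on postnatal day 25, in 60 libraries that form 12 groups of 5. The mice were wild type (WT) or carried 1 copy of the N2373K allele of Chd8, a chromatin remodeler linked to autism (Chd8+/N2373K, here Het). Each genotype received vehicle, the serotonin reuptake blocker fluoxetine or the mood stabilizer lithium, and males and females were separate groups. The drugs reached the pups through their mothers' milk for 3 weeks, from day 3 to day 24, so the dose each pup took is not given, and neither are the litters. Nothing in the labels says that the 5 libraries of a group came from separate litters, and p-values then measure only the spread between these samples.

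Mitochondria keep a small genome of their own that encodes core subunits of the respiratory chain, and only the mitochondrial ribosome translates those messages. Its large subunit joins amino acids and its small subunit reads the message, both around ribosomal RNA made in the mitochondrion. All of its proteins are encoded in the nucleus, made in the cytosol and imported. Part of them descend from bacterial ribosomal proteins, and the rest were added during mitochondrial evolution. Neurons depend on respiration for most of their energy, and inherited defects of these proteins often affect the brain.

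The genes were grouped by the subunit and origin of their products. The large subunit accounted for 30 genes with a bacterial homolog and 21 that are specific to mitochondria, and the small subunit for 15 and 11. Mrps30 and Mrps18a were placed in the large subunit, where their products sit in spite of the names. Mrps36 was kept apart, because its product is mainly known as a part of the 2-oxoglutarate dehydrogenase complex.

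Recovered read totals ran from 24.05 to 31.65 M reads (megareads) per library. Chd8 averaged 2671 ± 134 in the 30 Het libraries and 3094 ± 91.7 in the 30 WT libraries (normalized values, mean ± SD). Slc17a7, the vesicular glutamate transporter of cortical excitatory neurons, was between 34170 and 54210 in every library. Libraries differed in 9 markers of the olfactory bulb, which lies next to the frontal cortex. Their summed level reached 33640 in a Het vehicle male, and the lowest sum, 2200, was in a Het fluoxetine male. Of the 9 markers, Eomes and Tbx21 were at 0 in some libraries, and the rest were detected in all. In all, 16 libraries had an olfactory bulb score above 1, the mean of the markers' centered log2 values. They were 3 of 5 Het vehicle males, 2 of 5 Het vehicle females, 2 of 5 Het fluoxetine males and 3 of 5 Het fluoxetine females, beside 1 of 5 Het lithium males, 1 of 5 WT vehicle males, 2 of 5 WT vehicle females and 2 of 5 WT lithium females. None of the WT fluoxetine groups, the WT lithium males or the Het lithium females had such a library. The main counts below are therefore also given without these libraries where the number of calls differs. Other markers differed too. The sum of 6 striatal markers was 1591 to 2203 in Het vehicle males, 2299 to 2816 in Het lithium males and 2020 to 5546 in Het fluoxetine males. Medians of 6 cortical excitatory neuron markers under vehicle and fluoxetine were 133100 and 170900 in Het males, and 169300 and 131800 in Het females. The part of these differences in the results was not tested.

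Levels are normalized values, reads divided by 1 size factor per library. Over all libraries the mean level per gene ran from 98.4 for Mrpl23 to 1695 for Mrpl3, with a median of 632.9. Merged exons take in every annotated transcript of a gene and can be longer than the message present, so ranks per kilobase are rough. Per kilobase of merged exons, the highest were Mrpl41 at 904.2, Mrps21 at 857, Mrpl27 at 702 and Mrpl12 at 699.5. The lowest per kilobase were Mrpl23 at 20.2, Mrps35 at 46.2, Mrpl33 at 58.0 and Mrps10 at 64.2, against a median of 254.7. The genes were steady between libraries of 1 group. The coefficient of variation within groups had a median of 7.81%, from 3.93% for Mrpl37 to 21.7% for Mrpl23, the least abundant gene. Mrpl37 also spanned the smallest range over all 60 libraries, 1.23-fold from lowest to highest, and Mrpl23 the widest, 2.99-fold. The 78 genes together took 0.1548% to 0.1937% of the reads of a library. In bulk tissue, fewer cells of a type and less RNA per cell cannot be told apart, and this holds for every level given here.

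The first comparison asked whether the Chd8 allele by itself moved these genes. It did not move any past the test under vehicle. In a limma fit over all 60 libraries, 0 of 78 genes passed an adjusted p of 0.05 in males and 0 in females, where 0.0168% and 0.0225% of all genes passed. At an unadjusted p under 0.05 there were 6 genes in males and 2 in females, and edgeR and DESeq2 also called 0 in each sex. The median log2 fold change was 0.00 in males and -0.01 in females, with 42 and 38 of the 78 genes above 0, beside 48.5% and 49.9% of all genes. With both sexes averaged limma also called 0 (5 at an unadjusted p under 0.05, and 0 by edgeR and DESeq2), where 0.0562% of all genes passed. The largest difference in females was that of Mrpl23, -0.37 on the log2 scale (limma adjusted p = 0.784), and this is the gene with the lowest level. In males it also differed most, in the opposite direction, by 0.28 (adjusted p = 0.713). Standard errors of a fold change within 1 sex ran from 0.04 to 0.20 with a median of 0.07, so a difference of a few percent was not detectable for a typical gene. The genes on chromosome 14, which carries Chd8, were Mrps16, Mrpl52 and Mrpl57, and none of them passed the test, with log2 differences in males of 0.14, 0.10 and -0.07.

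The drugs were compared with vehicle within each genotype and sex. The comparisons of 1 genotype and sex share their 5 vehicle libraries, so a like pattern under both drugs is not independent evidence. In every one of the 8 comparisons at least 56 of the 78 genes were above vehicle, while about as many of all genes tested lay above 0 as below. Under fluoxetine, 70 and 67 of the 78 genes were higher in WT males and females, and 57 and 69 in Het males and females, against 51.1%, 51.1%, 49.9% and 51.5% of all genes. Under lithium, the numbers were 56 and 68 in WT and 59 and 72 in Het, against 48.7%, 48.9%, 49.4% and 49.2%. The shift was small. The median log2 fold change was 0.06, 0.08, 0.08 and 0.09 under fluoxetine, in the same order, and 0.07, 0.09, 0.06 and 0.10 under lithium, which is 4.04% to 6.93% in level. The median over all genes was between -0.00 and 0.01 in each. Without the 16 libraries with a high olfactory bulb score, the median for Het lithium males was -0.02 with 34 genes above 0, and for Het fluoxetine males 0.03 with 45 above 0. The other 6 medians then lay between 0.06 and 0.12.

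**Figure D1:**
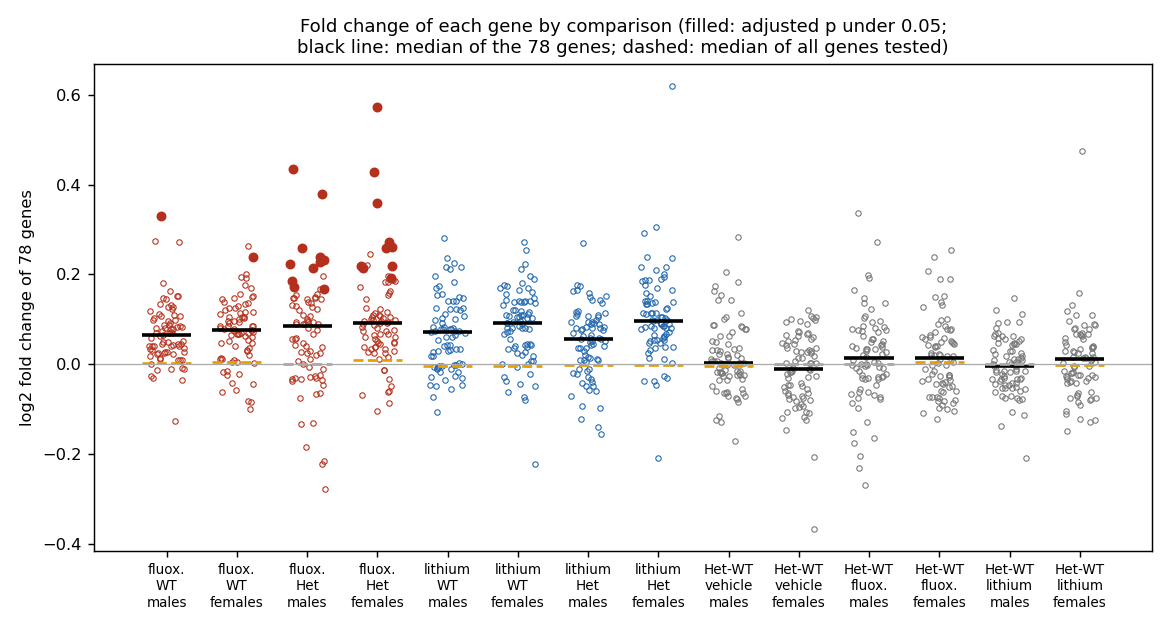
Log2 fold change of each of the 78 mitochondrial ribosomal protein genes (points) in the 14 comparisons within 1 sex. Filled points passed an adjusted p of 0.05, the solid line is the median of the 78 genes and the dashed line that of all genes tested. Filled points appear in the 4 fluoxetine comparisons only (1, 1, 11 and 10 genes), and the medians of all 8 drug comparisons lie above 0.

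A score per library, the mean of the 78 genes' log2 values after centering each gene, shows the same levels by sample. It averaged -0.05 and -0.06 in WT vehicle males and females, and -0.03 and -0.07 in the Het vehicle groups. All 8 drug groups averaged above 0, from 0.01 in WT fluoxetine females to 0.04 in Het fluoxetine males. Groups overlapped in single libraries. Het vehicle male replicate 3 scored 0.15, far above the other 4 Het vehicle males, which ran from -0.09 to -0.06. It is not one of the 16 libraries with a high olfactory bulb score, so it is 1 of the 2 Het vehicle males that remain when those are left out. The highest score of all, also 0.15, was that of Het fluoxetine female replicate 2, whose olfactory bulb score was high.

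**Figure D2:**
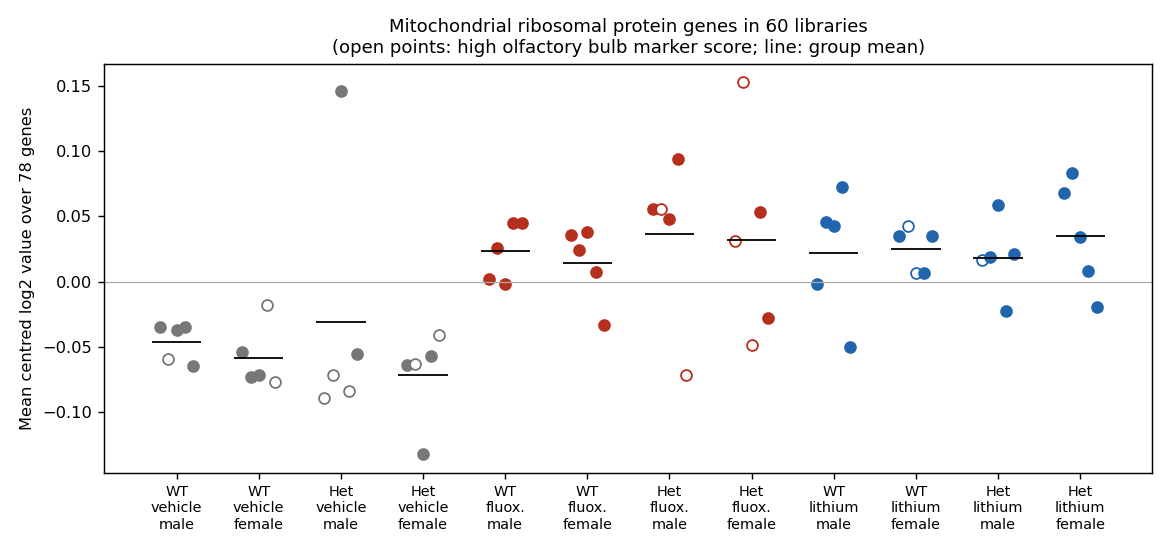
Mean centered log2 level of the 78 genes in each of the 60 libraries (points), by group, with the group mean as a line. Open points are the 16 libraries with an olfactory bulb score above 1. The 4 vehicle means lie below 0 and the 8 drug means above 0, and 1 Het vehicle male at 0.15 stands apart from its group.

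Of the 78 genes, 29 were above vehicle in all 8 drug comparisons, 15 in 7 and 19 in 6, where 7.89%, 8.93% and 11.7% of all genes were. The drugs share vehicle libraries, so these comparisons are not independent. Those above in all 8 include Mrps18c, Mrpl50, Mrps27, Mrpl46, Mrps16, Mrpl27 and Mrpl16. At the other end stood Mrpl33, above in 3, and Mrps10, above in 2 and below vehicle in all 4 lithium comparisons. In any of the 14 comparisons within 1 sex, 18 genes passed the test at least once, a smaller share than the 32.7% of all genes that did.

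In WT mice fluoxetine raised 1 gene in each sex. Mrps16 (chr14:20389304-20393634, minus strand), a small subunit protein with a bacterial homolog, was 318, 318, 349, 299.9 and 341 in WT vehicle males. It was 382, 404, 412, 423 and 424 in WT fluoxetine males, so that the groups did not overlap. The log2 fold change was 0.33 ± 0.07 (SE, limma adjusted p = 0.00713). In WT females the groups overlapped, with 302 to 392 under vehicle and 345 to 415 under fluoxetine. Mrpl27 (chr11:94653767-94660089, plus strand), a large subunit protein with a bacterial homolog, passed in WT females. Its values were 635, 628, 618, 655 and 622 under vehicle and 767, 796, 791, 669.9 and 709.7 under fluoxetine, again without overlap, a log2 fold change of 0.24 ± 0.06 (adjusted p = 0.0106). Against these single calls, 0.247% of all genes were called higher in WT males and 0.607% in WT females. Groups did not overlap, with the drug higher, for 4 of the 78 genes in males and 6 in females, where 1.62% and 2.56% of all genes had this pattern. With both sexes averaged, 6 genes rose and none fell, with 3.14% of all genes called higher. They were Mrpl27, Mrps16, Mrps11, Mrpl42, Mrpl16 and Mrpl49, with log2 fold changes from 0.11 to 0.23. Without the high olfactory bulb libraries 3 remained, Mrpl27, Mrps11 and Mrps16, and fluoxetine groups of WT held none of those libraries.

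In Het mice fluoxetine raised 11 of the 78 genes in males and 10 in females, and lowered none past the test. These are 14.1% and 12.8% of the genes. In the same comparisons 12% and 7.08% of all genes were called higher, so the share in males was near the background. Groups did not overlap, with fluoxetine higher, for 1 gene in males and 5 in females, where 3.8% and 2.84% of all genes had this pattern. The genes that rose in both sexes were Mrps18c, Mrpl41, Mrpl50, Mrps27 and Mrps30. The others were Mrpl16, Mrpl22, Mrpl48, Mrpl30, Mrpl11 and Mrpl10 in males and Mrpl13, Mrpl9, Mrpl46, Mrpl21 and Mrpl1 in females. Without the high olfactory bulb libraries, which left 2 Het vehicle males and 3 Het fluoxetine males, 0 genes passed in males (limma, 7 at an unadjusted p under 0.05), and 0.629% of all genes were called higher. 1 of these vehicle males is replicate 3, which had the high score. In females, with 3 and 2 libraries left, 4 passed, namely Mrps18c, Mrpl13, Mrpl19 and Mrpl45, and 6.47% of all genes were called higher. Oligodendrocyte markers also differed between the female groups. The summed level of 7 such markers was 33150 to 158200 under vehicle (median 70670) and 112800 to 202600 under fluoxetine (median 167600), and its part in the result was not tested. After the libraries were rescaled to the same total, 2 genes were called higher in males, Mrps18c and Mrpl16, and 3 lower, with 42 of the 78 above vehicle and a median over all genes of -0.06. In a fit that held only the 2 groups compared, limma called 0 genes in males and 3 in females, so the main counts rest on a spread estimated over all groups. The calls in males also turned on single libraries. Their number was 25 without Het vehicle male replicate 3, where 13.0% of all genes were called higher. It was 4 without Het fluoxetine male replicate 3 or Het vehicle male replicate 1, where 6.63% and 8.36% of all genes were. In females it was 4 without Het fluoxetine female replicate 2 or Het vehicle female replicate 3, against 4.66% and 2.98% of all genes.

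Mrps18c had the largest change under fluoxetine. Its product is the small subunit protein that takes the place of bacterial S18, and Mrps18a and Mrps18b are its paralogs. It was 222, 219.9, 256, 220.2 and 331 in Het vehicle females and 323, 472, 336, 327 and 397 in Het fluoxetine females. In Het males it was 209.7, 243, 300.3, 247 and 303 under vehicle and 327, 293, 498, 366 and 298 under fluoxetine. All but 1 vehicle female lay below every treated female, and in males the 2 highest vehicle libraries overlapped the 2 lowest treated ones. The log2 fold change was 0.57 ± 0.13 in females (48.9% higher, limma adjusted p = 0.00151) and 0.43 ± 0.13 in males (35.2% higher, adjusted p = 0.0105). In WT mice the groups averaged 273 ± 25.2 and 277 ± 26.9 in males, and 261 ± 35.2 and 312 ± 31.1 in females (vehicle and fluoxetine, SD, n = 5). With the high olfactory bulb libraries left out, the log2 fold change was 0.63 in Het females (adjusted p = 0.00833) and 0.37 in Het males (adjusted p = 0.187). The gene lies at chr5:100798627-100804471 on the plus strand (GRCm38). It shares 2297 bases with Gm43511, a transcript of uncertain status on the same strand, so part of its reads may be counted to either. Beside its start RefSeq (GRCm38.p6) has this stretch, 156 bases before the RefSeq start at chr5:100798595-100798617, plus strand. Capitals mark CTTCCGG, the reverse complement of the core sequence bound by ETS family factors such as GABPA, a known activator of nuclear genes for mitochondrial proteins. The letters CACGTG just before it, left in lower case, are the E-box, another of the sequences searched. The stretch is shown because this gene had the largest change among the genes called:
Mrps18c: tcacgtgaCTTCCGGcccgggaa

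Mrpl41 was the next in size and is the most abundant of the set per kilobase. Its protein is specific to mitochondria and belongs to the large subunit. Het vehicle females gave 748, 753, 658, 734 and 777 and Het fluoxetine females 779, 1119, 994, 1127 and 959.9. In males the values were 647, 691, 843, 653 and 749.8 under vehicle and 705, 749, 1274, 1145 and 890.4 under fluoxetine. The female groups did not overlap, and the spread was wide in the treated males, whose SD was 248 against 81.5 under vehicle. The log2 fold change was 0.43 ± 0.13 in females (limma adjusted p = 0.0185) and 0.38 ± 0.13 in males (adjusted p = 0.0280). It was 0.55 (adjusted p = 0.0576) and 0.34 (adjusted p = 0.330) without the high olfactory bulb libraries. With 1 library left out in turn, Mrpl41 kept its call in 7 of 10 fits in females and 5 of 10 in males. High single libraries also occurred in WT mice, at 1117 and 989.9 in 2 WT fluoxetine females and 1045 in 1 WT fluoxetine male. Mrpl41 lies at chr2:24974117-24975098 on the minus strand. None of the 6 motifs searched, which are spelled out at the end, was found in its promoter window. Its 250 bases before the RefSeq start (chr2:24975099-24975348, minus strand) are shown for contrast, as this gene was also called in both sexes and lacks those letters:
Mrpl41: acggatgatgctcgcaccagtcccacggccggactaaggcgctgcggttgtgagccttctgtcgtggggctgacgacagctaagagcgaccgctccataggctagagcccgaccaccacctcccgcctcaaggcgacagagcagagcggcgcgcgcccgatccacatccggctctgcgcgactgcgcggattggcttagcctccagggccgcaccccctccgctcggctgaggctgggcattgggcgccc

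Smaller changes with smaller standard errors were seen in Mrps27, Mrpl50 and Mrps30. Mrps27 (chr13:99344786-99415562, plus strand) encodes a small subunit protein with RNA-binding repeats that is specific to mitochondria. It was 595, 605, 542, 632 and 591 in Het vehicle females and 659, 736, 666, 691 and 636 in Het fluoxetine females, without overlap. Het males gave 611, 586, 625, 556 and 577 under vehicle and 688, 691, 735, 653 and 597 under fluoxetine, where 1 treated male fell within the vehicle range. Fluoxetine moved it by 0.19 ± 0.05 on the log2 scale in each sex (limma adjusted p = 0.0116 in females and 0.0105 in males). Without the high olfactory bulb libraries it did not pass in either sex alone.

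Mrpl50 (chr4:49512596-49521093, minus strand), a mitochondria-specific large subunit protein, was 957, 844, 839, 743 and 989 in Het vehicle females and 1023, 1167, 1129.6, 987 and 959.9 in Het fluoxetine females. In males the values were 802, 821, 999, 882 and 883 under vehicle and 954, 1042, 1103, 1028 and 985 under fluoxetine. In females it rose by 0.27 ± 0.06 on the log2 scale (limma adjusted p = 0.00291) and by 0.22 ± 0.06 in males (adjusted p = 0.00988). The ranges overlapped in both sexes, in males only through the vehicle library at 999, which is replicate 3. Neither sex passed without the high olfactory bulb libraries, at 0.21 (adjusted p = 0.121) and 0.13 (adjusted p = 0.448).

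Mrps30 (chr13:118378381-118387252, minus strand), a mitochondria-specific protein of the large subunit, was 460.1, 422, 412, 412 and 453 in Het vehicle females and 475, 534, 549, 432 and 529.9 in Het fluoxetine females. In males it was 385, 400.5, 472, 412 and 405 under vehicle and 472, 527, 511, 475 and 463 under fluoxetine. The log2 fold change was 0.22 ± 0.08 (limma adjusted p = 0.0483) in females and 0.24 ± 0.08 (adjusted p = 0.0219) in males. WT mice gave nearly the same mean with and without fluoxetine, 428 ± 24.9 and 415 ± 26.7 in males and 441 ± 41.8 and 439 ± 59.3 in females (SD, n = 5). Reads of Mrps30 are uncertain to a degree, since its 5′ end overlaps B430218F22Rik on the opposite strand by 623 bases and it is not given whether counting used the strand.

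Of the genes called in 1 sex, Mrpl13, which has a bacterial homolog in the large subunit, had the largest change. It was 429, 472, 394, 386 and 490.0 in Het vehicle females and 517, 646, 571, 579 and 474 in Het fluoxetine females, a log2 fold change of 0.36 ± 0.09 (limma adjusted p = 0.00343). It kept its call without the high olfactory bulb libraries, at 0.38 (adjusted p = 0.0403). The lowest treated female was the only one within the vehicle range. In Het males the log2 fold change was 0.11 (adjusted p = 0.382), and the difference between the sexes was not called for any of the 78 genes.

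**Figure D3:**
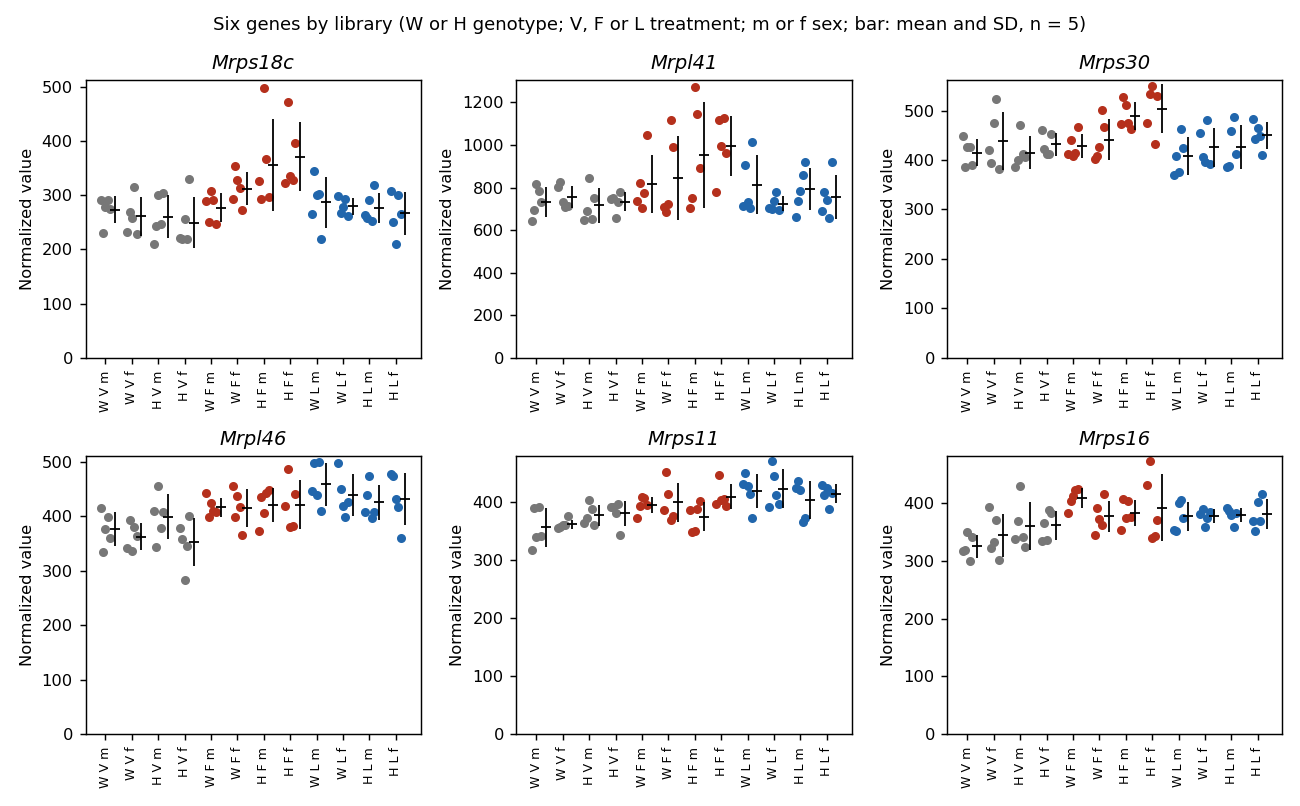
Normalized values of Mrps18c, Mrpl41, Mrps30, Mrpl46, Mrps11 and Mrps16 in each library (points) of the 12 groups, with group mean and SD (n = 5). Mrps18c and Mrpl41 are high in several Het fluoxetine libraries (up to 498 and 1274), Mrps30 is raised in the Het fluoxetine groups, Mrpl46 and Mrps11 are raised under lithium in WT, and Mrps16 is raised in WT fluoxetine males.

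With both sexes of Het mice averaged, fluoxetine raised 27 of the 78 genes (34.6%) and lowered none, where 16.9% of all genes were called higher. The smallest adjusted p was that of Mrps18c, with a log2 fold change of 0.50 ± 0.09 (limma adjusted p = 2.18e-05). Mrpl50 followed at 0.25 ± 0.05 (adjusted p = 3.71e-05), then Mrps27 at 0.19 ± 0.04 (adjusted p = 0.000135) and Mrpl41 at 0.40 ± 0.09 (adjusted p = 0.000538). Without the high olfactory bulb libraries 5 genes passed, Mrps18c, Mrpl41, Mrps27, Mrpl9 and Mrpl45, where 8.93% of all genes were called higher. Mrpl45, whose product lies near the exit tunnel and holds the ribosome at the inner membrane, was then at 0.22 (adjusted p = 0.0145).

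Lithium called none of the 78 genes within 1 sex. The smallest adjusted p-values were 0.157 for Mrps11 in WT males, 0.121 for Mrps11 in WT females, 0.0763 for Mrpl20 in Het males and 0.050 for Mrps23 in Het females, the last just above the threshold. Few genes of any kind passed there, with 0.0786%, 0.118%, 2.0% and 0.629% of all genes called either way. At an unadjusted p under 0.05 limma gave 11, 22, 10 and 21 of the 78 genes, all higher than vehicle except 1 in Het females. In Het females edgeR called 1 and DESeq2 4, and both called 0 in the other 3. Groups did not overlap, with lithium higher, for 5, 9, 1 and 5 genes, against 1.86%, 2.44%, 2.45% and 1.27% of all genes. Without the high olfactory bulb libraries 7 genes passed in Het females. Mrpl46, Mrpl12, Mrps23, Mrpl51, Mrpl18 and Mrps6 were higher and Mrps10 was lower, with 3.17% of all genes called higher. Mrps6 shares 29152 bases with Slc5a3 on the same strand, so part of its reads may be counted to either gene.

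Markers of red blood cells had higher medians under lithium than under vehicle, and also under fluoxetine, and their part in the results was not tested. The summed level of 5 such markers had medians under lithium of 11120 and 11200 in WT males and females, and 11810 and 8492 in Het males and females. In the same order they were 5765, 6621, 4378 and 4852 under vehicle, and 8071, 7536, 7668 and 6213 under fluoxetine.

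With both sexes averaged, lithium raised 6 genes in WT mice, where 1.9% of all genes were called higher, and lowered none. Mrps11 and Mrpl46 led. In GENCODE the genes run in opposite directions from overlapping 5′ ends, with 413 bases in common. Mrps11 lies at chr7:78783119-78792989 on the plus strand and Mrpl46 at chr7:78775236-78783531 on the minus strand. RefSeq places the starts beside chr7:78783130 for Mrps11 and chr7:78783090 for Mrpl46, and these starts do not give the overlap. Mrps11 encodes a small subunit protein with a bacterial homolog, and Mrpl46 a mitochondria-specific protein of the large subunit. Because it is not given whether strand was used in counting, reads in the shared stretch may be assigned to either gene.

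Mrps11 was 355, 356, 361, 359.6 and 375 in WT vehicle females and 391, 471, 444, 411 and 396 in WT lithium females, without overlap. In males it was 318, 389, 339, 392 and 341 under vehicle and 430.4, 449, 427, 413 and 372 under lithium. Over both sexes the log2 fold change was 0.23 ± 0.04 (limma adjusted p = 0.00225). Its RefSeq promoter holds GCCATCTT, the reverse complement of the core sequence of the factor YY1, 107 bases before the start at chr7:78783016-78783039 on the plus strand. The stretch is shown with that sequence in capitals, since it lies before Mrps11 and inside the body of Mrpl46, and both genes were called:
Mrps11: cgggcgccGCCATCTTtctgtctt

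Mrpl46 was 342, 393, 337, 379.8 and 364 in WT vehicle females and 499, 450.4, 419, 399 and 426 in WT lithium females, again without overlap. WT vehicle males gave 416, 335, 377, 399 and 361 and WT lithium males 447, 498, 439, 499.9 and 410.1, with 1 treated male inside the vehicle range. Over both sexes the log2 fold change was 0.28 ± 0.06 (limma adjusted p = 0.00471). The other 4 were Mrpl12 at 0.18, Mrpl4 at 0.11, Mrps2 at 0.12 and Mrps16 at 0.18. When 1 library was left out in turn, Mrps2 kept its call in 5 of 20 fits and Mrps16 in 6 of 20. Without the high olfactory bulb libraries 3 of the 6 genes passed, Mrps11, Mrpl46 and Mrps2, while Mrpl12 (adjusted p = 0.0659), Mrpl4 (adjusted p = 0.106) and Mrps16 (adjusted p = 0.144) did not. Mrpl4 is a steady gene, with a coefficient of variation of 4.04% within groups. It was 839 to 935 in the 10 WT vehicle libraries and 921 to 998 in the 10 WT lithium libraries, and within each sex the groups did not overlap.

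In Het mice lithium raised 10 genes and lowered 1 over both sexes, with 5.3% of all genes called higher and 3.84% lower. None of the raised genes kept its call without the high olfactory bulb libraries, and only the lowered gene, Mrps10, did. Mrpl12, a factor-binding stalk protein of the large subunit that also binds the mitochondrial RNA polymerase, was among the called genes in both genotypes. It was 981, 1001, 911, 1065 and 1058 in Het vehicle females and 1235, 1210.0, 1152, 1206 and 1099 in Het lithium females, without overlap. In males Het vehicle gave 945, 1043, 1237, 977 and 946 and Het lithium 1231, 1174, 1196, 1101 and 1045. The male groups overlapped through the vehicle male at 1237 alone, which is replicate 3. The log2 fold change over both sexes was 0.20 ± 0.04 (limma adjusted p = 0.00337).

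Mrps23, a mitochondria-specific small subunit protein, had the smallest adjusted p in this comparison. It was 712, 706, 685, 764 and 759.6 in Het vehicle females and 808, 853, 852, 821 and 881 in Het lithium females, and the log2 fold change over both sexes was 0.18 ± 0.04 (limma adjusted p = 0.00263). Mrpl20, Mrps12, Mrpl4, Mrps7, Mrpl16, Mrpl46, Mrps33 and Mrpl28 also rose, by 0.10 to 0.23 on the log2 scale. Mrps12 encodes the protein at the decoding site of the small subunit.

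Mrps10 was the only gene called lower in any comparison. Its product is the small subunit protein that corresponds to bacterial S10. It was 610.3, 485, 562, 607 and 556 in Het vehicle females and 492, 499, 562, 439.9 and 449 in Het lithium females. In males it was 525, 466, 599, 573 and 464 under vehicle and 484, 524, 479, 431 and 459 under lithium. The groups overlapped in both sexes, and the log2 fold change was -0.17 ± 0.05 (limma adjusted p = 0.0251). It stayed the single gene called in this comparison without the high olfactory bulb libraries, at -0.22 (adjusted p = 0.0496).

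The largest change of all 78 genes that did not pass was that of Mrpl23 under lithium in Het females. Its values were 80.4, 66.4, 95.8, 85.6 and 62.8 under vehicle and 88.5, 128, 146, 108 and 135 under lithium, a log2 fold change of 0.62 (limma adjusted p = 0.121). In WT females the means went from 101 ± 14.7 under vehicle to 87.9 ± 21.8 under lithium. This gene has the lowest level and the widest spread of the set, and a processed pseudogene, Mrpl23-ps1, is in the table, between which and the gene reads could be divided.

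The next question was whether Het and WT mice given the same drug differed. Under fluoxetine 0 genes passed in males (limma, 7 at an unadjusted p under 0.05, smallest adjusted p = 0.0860) and 0 in females (4, smallest adjusted p = 0.294), where 1.18% and 0.0393% of all genes passed. edgeR and DESeq2 also called 0 in both. Left without the high olfactory bulb libraries, males had 2 calls, Mrps18c at 0.50 (limma adjusted p = 0.0413) and Mrpl22 at 0.34 (adjusted p = 0.0414). The share of all genes called in that fit is not given here. Averaged over the sexes 2 genes were higher in Het, with 3.45% of all genes called higher. Mrps30 differed by 0.19 ± 0.06 (adjusted p = 0.0272) and Mrps18c by 0.29 ± 0.09 (adjusted p = 0.0382). When the high olfactory bulb libraries were left out, these were 0.15 (adjusted p = 0.206) and 0.36 (adjusted p = 0.0599). Under lithium 0 genes passed in either sex or on average, with 0, 1 and 2 at an unadjusted p under 0.05 and 0 by edgeR and DESeq2. There 0.00562%, 0.0168% and 0.0393% of all genes passed.

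Whether a drug acted differently in Het than in WT was tested as an interaction. It was not called for any of the 78 genes in limma, for either drug in either sex. For fluoxetine 7 genes in males and 3 in females had an unadjusted p under 0.05, and 0.927% and 0.0% of all genes were called. For lithium there were 0 and 1, and 0.0% of all genes were called in each sex. edgeR called 0 in all 4, and DESeq2 called 2 in the fluoxetine comparison of males and 0 in the rest. In that comparison limma called 1 gene with a replicate block, 1 after rescaling to the same total and 1 with the length trend removed. The smallest adjusted p in males was that of Mrpl24, a large subunit protein with a bacterial homolog, which was above vehicle by 0.27 in WT and below by 0.13 in Het, an interaction of -0.41 ± 0.11 on the log2 scale (limma adjusted p = 0.0580). For Mrps18c the interaction was 0.41 ± 0.18 in males (adjusted p = 0.218) and 0.31 ± 0.18 in females (adjusted p = 0.448). The calls in Het mice beside the few in WT mice are thus not shown to differ between genotypes. The difference of the drug effect between Het males and Het females was not called either, with 8 genes for fluoxetine and 7 for lithium at an unadjusted p under 0.05, 0 by edgeR and DESeq2, and 0.0112% and 0.0% of all genes called.

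Most genes of each subunit and origin lay above vehicle in Het fluoxetine mice. In Het fluoxetine females 29 of 30 large subunit genes with a bacterial homolog were above vehicle, with a median log2 fold change of 0.10 and 4 called. Of the mitochondria-specific large subunit genes 19 of 21 were above (median 0.06, 4 called). In the small subunit 13 of 15 genes with a bacterial homolog (median 0.09, 1 called) and 7 of 11 mitochondria-specific genes (median 0.07, 1 called) were above. In Het fluoxetine males the medians were 0.10, 0.09, 0.02 and 0.06 in the same order, with 5, 4, 1 and 1 called. Over all genes 7.08% were called higher in these females and 12% in these males. In Het lithium females all 30 large subunit genes with a bacterial homolog were above vehicle, by 0.03 to 0.62. Differences between the groups of genes were not tested. Mrps36 was not called in any comparison and lay between -0.09 and 0.18 in the 8 drug comparisons.

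Drug effects fell with gene length in most of these comparisons. Merged exon length in the set ran from 607 to 8631 bases with a median of 2394. Among other protein-coding genes shorter than 1 kilobase the median log2 fold change was 0.07 and 0.08 under fluoxetine in WT males and females, 0.06 in Het females and -0.01 in Het males, and it was -0.05, -0.06, -0.00 and -0.03 in genes over 8 kilobases. In Het fluoxetine males the median of the 78 genes went from 0.06 in the shortest class to 0.14 in the longest, which held 4 genes. In Het lithium females the median of the 78 genes went from 0.11 to 0.03. After the trend with length was removed from each library, the medians were 0.03, 0.04, 0.06 and 0.08 under fluoxetine (WT males, WT females, Het males, Het females) and 0.04, 0.08, 0.04 and 0.08 under lithium. The number of genes called within a sex was then 1, 0, 13 and 10 under fluoxetine.

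**Figure D4:**
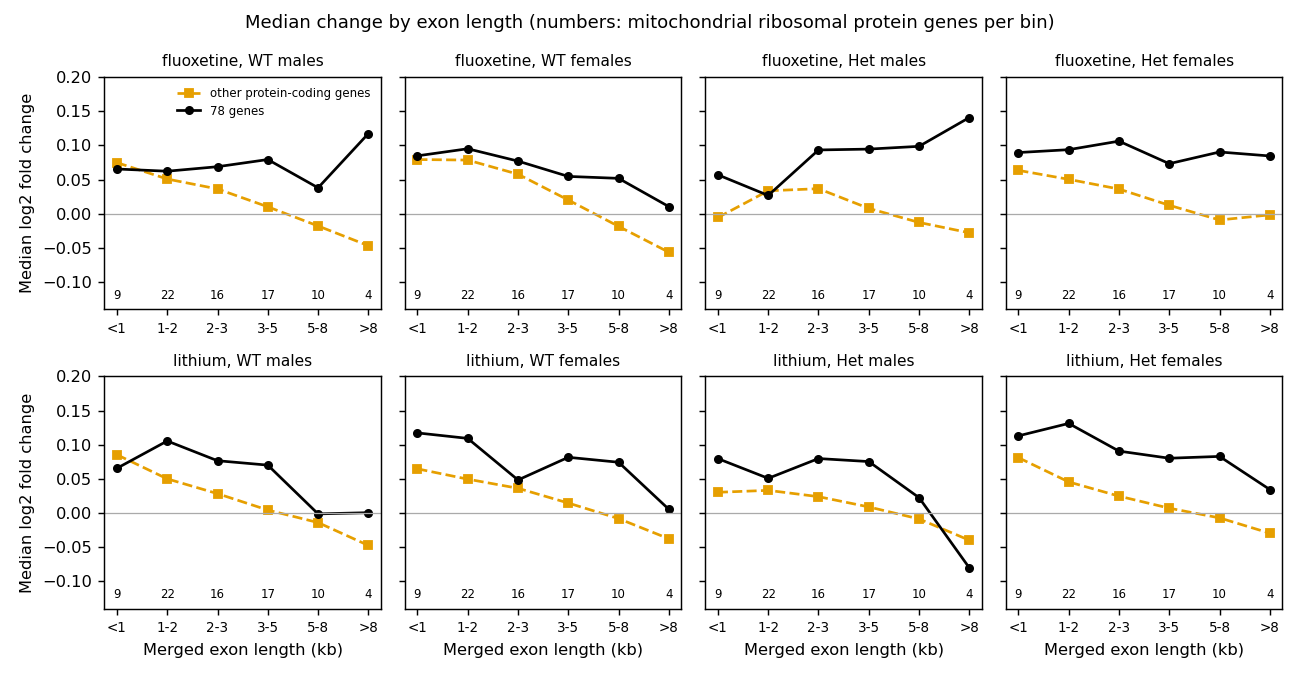
Median log2 fold change against merged exon length in 6 classes, for the 78 genes and for other protein-coding genes, in the 8 drug comparisons. Other genes fall with length in most panels, and the 78 genes lie above them in most classes. The longest class holds 4 of the 78 genes.

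Many of these genes start beside another gene. Of the 78, 37 have a neighbor on the opposite strand whose start lies within 1000 bases or whose 5′ end overlaps theirs, and 32 such partners that are not themselves among the 78 genes are in the table (Mrpl46 and Mrps11 are each other's partner). Mrps18c starts 29 bases from Helq, a DNA helicase gene on the opposite strand. Helq fell where Mrps18c rose, by 0.29 on the log2 scale in Het fluoxetine males (limma adjusted p = 0.0110) and by 0.30 in females (adjusted p = 0.0136). Mrpl41 starts 935 bases from Pnpla7, a phospholipase gene, which rose in Het males by 0.57 (adjusted p = 0.0197) and was at 0.28 in females (adjusted p = 0.300). The partners of Mrps27 and Mrpl50, Ptcd2 and Zfp189, did not pass in either sex. Of the 32 partners 7 were called higher and 3 lower in Het fluoxetine males, and 2 higher and 2 lower in Het females. Of all genes 12% were called higher and 10.7% lower in these males, and 7.08% and 8.04% in these females.

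Other genes of mitochondrial translation were followed as lists. Of 5 mitochondrial ribosomal proteins with other names, Dap3, a GTP-binding protein of the small subunit, rose under fluoxetine in Het males by 0.25 ± 0.06 (limma adjusted p = 0.00350) and in Het females by 0.28 ± 0.06 (adjusted p = 0.00192), in 5 of 5 libraries of each. Chchd1 and Aurkaip1 rose under lithium in Het mice averaged over sex, by 0.36 ± 0.09 (adjusted p = 0.00941) and 0.14 ± 0.04 (adjusted p = 0.00894). Of 30 assembly factors, 6 were called higher and 0 lower in Het fluoxetine males and 3 higher and 1 lower in Het females, with medians of 0.08 and 0.06. The shares of all genes called higher there, 12% and 7.08%, are the background for these counts, and the count in females is near it. They include C1qbp, a matrix chaperone, at 0.21 and 0.19, and Ddx28, a helicase that acts on the large subunit, at 0.28 and 0.36, both called in both sexes. Mrm1, which methylates the ribosomal RNA of the large subunit, was called lower in females at -0.31.

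The genes that load transfer RNA did not move in 1 direction. Of 17 mitochondrial aminoacyl-tRNA synthetases 4 were called higher and 4 lower in Het fluoxetine males, where 12% of all genes were called higher and 10.7% lower. Pars2 rose by 0.45, while Ears2 fell by 0.42 and Mars2 fell by 0.26. In Het females only Cars2 passed, and it fell by 0.22, where 7.08% of all genes were called higher and 8.04% lower. Of 11 translation factors, Mtif2, which places the first transfer RNA, rose by 0.17 in Het males, and 0 passed in Het females. Of 13 genes of mitochondrial DNA and RNA upkeep, Lrpprc, which stabilizes mitochondrial messages, was called higher in both sexes at 0.13 and 0.12, and Polg and Twnk, the replicative polymerase and helicase, fell in Het males by 0.25 and 0.26. Among 10 regulators of mitochondrial biogenesis Pprc1, a coactivator related to Ppargc1a, was lower under fluoxetine in every genotype and sex, at -0.38, -0.38, -0.40 and -0.46. Of 15 genes encoded by the mitochondrion, its ribosomal RNA genes among them, 1 was called higher in WT males and 1 lower in Het females under fluoxetine. Of all genes, 0.247% were called higher in these WT males and 8.04% lower in these Het females. The medians of the 15 genes were 0.14 and 0.07 in WT and 0.05 and -0.03 in Het.

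Promoter windows from RefSeq (GRCm38.p6, 250 bases before to 50 after a start) were found for 69 of the 78 genes. For this, 6 sequences were searched on both strands, and the shares of 11838 genes are given beside them. CCGGAAG, the ETS family core, was in 37.7% of the 69 genes and 17.5% of all. AAGATGGC, the YY1 core, was in 17.4% and 4.63%, and GCATGCGC, the core of NRF1, in 11.6% and 5.46%. GGGGCGGGG for the SP and KLF families was in 18.8% and 23.7%, the E-box CACGTG in 7.2% and 11.1%, and TGACGTCA, the cyclic AMP response element, in 2.9% and 3.34%. At least 1 of the ETS, NRF1 and YY1 sequences was in 55.1% of the 69 genes and 25.1% of all. A match is a description of the letters and not a bound site. The following stretches are from genes with a call named above, with the matched letters in capitals. The first 3 show the same core in promoters of genes called in different groups, and the others show other motifs.
Mrps27, 48 bases before the start, chr13:99344730-99344752, plus strand: taggaccaCTTCCGGcggaggcg
Mrpl27, 55 bases before, chr11:94653728-94653750, plus strand: cgcaagacCCGGAAGtagatcta
Mrps16, 74 bases before, chr14:20393550-20393572, minus strand: ggggcgctCTTCCGGgcttcagg
Mrps27, 15 bases after, chr13:99344792-99344815, plus strand: tgcgctccAAGATGGCggctccca
Mrpl16, 49 bases before, chr19:11770358-11770381, plus strand: ggacaggaTGACGTCActtcctgt
The first 3 hold the ETS core, on the sense strand in Mrpl27 and on the other strand in Mrps27 and Mrps16. The fourth holds the YY1 core and the last the cyclic AMP response element. Mrpl50, Mrps30, Mrpl12 and Mrpl46 had a window, and none of the 6 was found in it.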

How the data were processed

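RNA from prefrontal cortex was sequenced from stranded libraries of poly(A)-selected RNA (TruSeq), per the labels' protocols. Genome build GRCm38 and the tools Salmon (0.11.2), R (3.6.0) and DESeq2 (1.19.11) are listed in the submitters' processing notes, without their roles. The deposited table held a normalized signal for 18088 genes in 60 libraries. Dividing each of the authors' deposited signal columns by its smallest value above 0 returned whole reads for 100% of values (tolerance 0.001), so depth could be recovered, and it was 24.05 to 31.65 M reads (megareads) per library. The values are thus normalized by 1 size factor per library and not raw counts, and limma was the test used.

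Values were taken to log2(value + 1), a scale that understates changes of low genes. In R 4.3.3, limma 3.58.1 with a mean trend fitted 1 mean per group over all 60 libraries (48 residual degrees of freedom) for 17807 genes. The 27 comparisons were contrasts of group means, two-sided, with Benjamini-Hochberg adjustment over all genes within each. A gene was called at an adjusted p under 0.05. "Mean of both sexes" averages the 2 single-sex contrasts. No 2 libraries of a group agreed within sampling noise (chi-square per degree of freedom 3.93 to 64.8 in 120 pairs). Coordinates and lengths came from GENCODE M21 on GRCm38. The limma fit was tried on simulated data with known changes, for the comparison of fluoxetine with vehicle in Het males only. A gene had the same spread in every simulated group, and the other comparisons, tests and steps were not simulated.

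Alternatives were quantile normalization, rescaling to equal totals, a pseudocount of 8, no filter, only the groups compared, a replicate block, edgeR 4.0.16 (quasi-likelihood, TMM) and DESeq2 1.42.0 on recovered reads, and leaving out each library. Added after the data were seen were leaving out the 16 libraries with an olfactory bulb score above 1 and removing the trend with length (lowess, span 0.5).

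The members and gene lists were chosen with earlier results of these data known. Genes named are per comparison at most 8 called genes by size of change and at most 4 by adjusted p, those called in most comparisons, the 4 highest and 4 lowest per kilobase, genes with a special role, and up to 4 per list. Outside that rule and chosen after the values were seen were Mrpl37, Mrpl33, Mrpl19, Mrpl51, the genes given as the full membership of a count, Helq, Pnpla7, Ptcd2 and Zfp189. The motifs, the sequences shown and the counting of overlapping 5′ ends as neighbors were also chosen after the values were seen. Depth per gene sets the precision: 98.4 to 1695 normalized reads per gene.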

Additional observations from a re-analysis of the deposited data

Results flagged for a closer look

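In 168 groups of 5 libraries, the highest or lowest library was set against its group's range for the score of the 78 genes and for a selection of the genes named above. In 11 of them that library stood apart, by a gap above 0.71 of the whole range, and chance alone gives about 5% of groups, 1 in 20. The score of Het vehicle male replicate 3 was 0.146, with the other 4 between -0.0889 and -0.0556. Het vehicle female replicate 3 scored -0.132 and Het fluoxetine male replicate 5 scored -0.0713, each below its group. Mrps18c was 230.3 in WT vehicle male replicate 2, below the others at 274 to 292. Mrpl50 was 1157 in WT fluoxetine female replicate 4 and 1030.0 in WT lithium female replicate 4, each above its group. In Het fluoxetine female replicate 2, Mrpl27 was 813.1 and Mrps11 was 446.3, both the highest of 5. Mrps11 was 375.2 in WT vehicle female replicate 5, Mrpl12 was 1088 in WT fluoxetine male replicate 1 and Mrps10 was 667.4 in Het fluoxetine male replicate 3, each the highest of its group.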

How the results depend on the processing

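Of 55 calls of named genes, all kept their direction under every alternative, and 54 kept the call with quantile normalization, 37 after rescaling to equal totals, 55 with a pseudocount of 8, 55 without a filter, 50 with edgeR, 54 with DESeq2, 43 with the length trend removed, 28 with only the groups compared and 15 without the 16 high olfactory bulb libraries. The number of genes called moved by over 1.5 times as follows. For fluoxetine in WT males it was 2 with quantile normalization, only the groups compared or DESeq2, and in WT females 0 with length removed or only the groups compared. In Het males it was 18 with quantile normalization, 5 after rescaling (2 higher, 3 lower) and 0 without the olfactory bulb libraries or with only the groups compared. In Het females it was 4 and 3 under these last 2. For lithium in Het females it was 1 after rescaling, 7 without the olfactory bulb libraries, 1 with edgeR and 4 with DESeq2. Between genotypes under fluoxetine in males it was 2 without the olfactory bulb libraries. Averaged over sexes, fluoxetine in WT gave 11 with quantile normalization, 2 after rescaling and 3 with length removed or without the olfactory bulb libraries. Fluoxetine in Het gave 13, 5 and 12 (rescaled, without those libraries, only the groups compared). Lithium gave 3 and 14 in WT and 1 and 4 in Het, and the genotype difference under fluoxetine 0 and 0 (without those libraries, only the groups compared). The interaction for fluoxetine in males gave 1 after rescaling, 1 with length removed and 2 with DESeq2. The causes were not tested.

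Leaving out 1 library at a time gave 4 to 25 genes for fluoxetine in Het males, 4 to 11 in Het females, and 1 to 1 in each WT sex. Lithium gave 0 to 8 in Het males and 0 to 3 in Het females. Averaged over sexes, fluoxetine gave 3 to 7 in WT and 20 to 33 in Het, and lithium 2 to 8 and 5 to 19. The genotype difference under fluoxetine gave 0 to 1 in males and 0 to 5 averaged, and the interaction in males 0 to 2. Of all genes, 2323 to 4418 were called for fluoxetine in Het males and 1298 to 3277 in Het females. WT males and females had 151 to 230 and 177 to 494. Under lithium Het males and females had 71 to 1103 and 7 to 254. Averaged over sexes, fluoxetine had 1013 to 1596 in WT and 5139 to 6282 in Het. Lithium had 249 to 600 and 967 to 2401. The genotype difference had 52 to 809 in males and 672 to 2422 averaged, and the interaction 9 to 695. Het vehicle male replicate 3 was the library left out at the values 25, 8 and 19.

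No source says that replicate numbers mark a shared litter, and in no comparison did all 5 same-numbered pairs correlate over 0.1. Correlations of their deviations ran from -0.276 to 0.222. For lithium in Het males 4 of 5 pairs were over 0.1 and 4 matched best with their own number, and for the genotypes under vehicle in females 3 pairs were over 0.1 and 1 matched best, a hint from the data and not the design. With a replicate block, 54 of the 55 calls were kept, and the fluoxetine interaction in males gave 1 gene. Depth was not varied, and at about 100 normalized reads Mrpl23 had the widest error.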
